A study of Mus musculus with 8 samples.

Results

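The genes described here are those of the heat shock protein and DnaJ chaperone families. They were taken as every probe set whose platform annotation holds 1 gene symbol beginning with Hspa, Hspb, Hsp90, Hsph, Hspd, Hspe or Dnaj, with the probe set of highest mean kept for each gene. Of 72 such genes, 63 had a mean log2 level over the arrays of at least 5.63, the level below which the dimmest 40% of probe sets lie, against 13524 genes with 1 symbol above that level in all. The members just inside this limit were Dnajb8 at a mean of 5.66, Dnajb6 at 5.84 and Hspb9 at 5.88, and the genes just outside it were Hspb3, which rounds to 5.63 but lies under the limit, Dnajb13 at 5.49 and Hspb7 at 5.35. By the textbook site of the protein, 35 members were placed in the cytosol and nucleus, 14 in the endoplasmic reticulum (ER), 8 in mitochondria and 4 at vesicles, endosomes or cilia, and 2 (Dnajc4 and Dnajc28) were left unplaced. The prefix rule also takes in Hspbp1 and Hspbap1, which bind chaperones and are not small heat shock proteins, and Hspb11, a protein of the ciliary transport machinery.

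For each of 8 mice, RNA of the thalamic region was put on 1 Affymetrix whole-transcript array, in 4 groups of 2 male C57BL/6 mice that were 6 weeks old at the start. Control mice had saline injections daily over 4 weeks. MPTP mice had MPTP-HCl, a toxin that damages dopamine neurons, at 20 mg/kg every 24 hr for the same 4 weeks. Acupoint mice had the same MPTP injections and 14 sessions of needling by hand, 48 hr apart, at the points GB34 and LR3, and non-acupoint mice had the same injections and sessions with needles in the hips. All needled mice therefore also carried MPTP, no needled mouse had saline alone, and how the 2 mice of a group were chosen for the arrays is not stated.

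Chaperones of the Hsp70 family (Hspa genes) bind unfolded stretches of protein and release them on cycles of ATP hydrolysis. J-domain proteins (Dnaj genes) bring clients to them and start the hydrolysis, while the Hsp90, Hsp60 and small heat shock proteins take over later steps or hold clients in solution. In the cytosol, unfolded protein frees the transcription factor HSF1, which binds heat shock elements. In the ER, the unfolded protein response (UPR) works through ATF6, XBP1 and PERK, and ATF6 and XBP1 act on ER stress elements.

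Promoters of members whose levels are described further on are printed here, because they show which stress elements the cytosolic, ER and mitochondrial genes carry. They come from RefSeq on the mouse build GRCm38.p6 and run up to the transcription start. Of the 63 members, 52 had a promoter window, which spans 250 bases before to 50 after a start. The 3 ER genes below carry the ER stress element, CCAAT and CCACG with 9 bases between them on either strand, in capitals. Hspa5 lies at chr2:34771840-34772089 on the plus strand, Hsp90b1 at chr10:86705445-86705694 on the minus strand and Dnajc3 at chr14:118937682-118937931 on the plus strand.
Hspa5: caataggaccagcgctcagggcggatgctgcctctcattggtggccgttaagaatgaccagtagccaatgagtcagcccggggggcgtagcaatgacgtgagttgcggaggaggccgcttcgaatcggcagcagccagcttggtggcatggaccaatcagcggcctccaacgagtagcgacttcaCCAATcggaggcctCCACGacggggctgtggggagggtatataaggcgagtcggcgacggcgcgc
Hsp90b1: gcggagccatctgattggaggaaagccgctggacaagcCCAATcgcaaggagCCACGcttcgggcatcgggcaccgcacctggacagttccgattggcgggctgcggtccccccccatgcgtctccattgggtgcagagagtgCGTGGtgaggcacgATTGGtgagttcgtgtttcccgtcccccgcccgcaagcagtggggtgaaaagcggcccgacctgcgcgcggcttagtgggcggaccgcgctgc
Dnajc3: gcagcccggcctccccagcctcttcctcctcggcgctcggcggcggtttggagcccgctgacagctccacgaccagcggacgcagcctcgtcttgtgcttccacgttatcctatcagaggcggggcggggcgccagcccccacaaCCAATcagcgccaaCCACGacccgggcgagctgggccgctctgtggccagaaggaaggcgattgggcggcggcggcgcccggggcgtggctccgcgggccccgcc
The match of Hspa5 spans positions -65 to -47 from its start, and Hsp90b1 has 2 matches in opposite orientation. These were the 3 matches among 12 ER members with a window, a share of 25%, where 37 of all 27025 genes with a window (0.137%) had one. The related ER stress element II, ATTGG and CCACG with 1 base between, was found in Dnajb11 alone among the members.

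Cytosolic genes of the heat shock response carry units of GAA and TTC instead, in capitals in the next pair. Hspa1a lies at chr17:34972157-34972406 on the minus strand and Hspb1 at chr5:135887669-135887918 on the plus strand.
Hspa1a: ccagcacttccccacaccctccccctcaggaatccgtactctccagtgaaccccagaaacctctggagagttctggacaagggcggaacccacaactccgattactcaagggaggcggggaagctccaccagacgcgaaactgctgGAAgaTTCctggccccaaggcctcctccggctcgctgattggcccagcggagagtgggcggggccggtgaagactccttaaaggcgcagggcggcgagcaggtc
Hspb1: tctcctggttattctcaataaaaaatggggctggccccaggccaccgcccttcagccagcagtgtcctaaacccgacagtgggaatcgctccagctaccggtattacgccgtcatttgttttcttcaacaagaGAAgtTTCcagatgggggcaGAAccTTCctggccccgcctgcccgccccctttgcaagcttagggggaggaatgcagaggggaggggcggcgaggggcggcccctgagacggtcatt
The 2-unit pattern GAANNTTC or TTCNNGAA was found in 8 of the 10 HSF1-regulated members with a window (80%), in 13 of all 52 members (25%) and in 17% of all genes with a window. The 3-unit pattern, which adds a further unit after 2 more bases and so contains the shorter one, was found in 4 of 52 members (7.69%) and in 0.662% of all genes.

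Hspd1 and Hspe1, the mitochondrial Hsp60 and its lid Hsp10, are transcribed away from each other from 1 shared region, chr1:55087933-55088147, printed on the plus strand from the start of Hspd1 to that of Hspe1. Capitals mark its heat shock units, which alternate and overlap in the search.
Hspd1 and Hspe1: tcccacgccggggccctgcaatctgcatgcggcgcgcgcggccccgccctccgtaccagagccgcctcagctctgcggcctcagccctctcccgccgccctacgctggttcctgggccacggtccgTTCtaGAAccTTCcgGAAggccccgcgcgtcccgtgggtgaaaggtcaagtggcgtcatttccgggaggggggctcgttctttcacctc
The promoter of Dnajb9, an ER co-chaperone of Hspa5 that is itself a target of the UPR, is printed for contrast, from chr12:44210069-44210318 on the minus strand. None of the 4 patterns was found in these letters.
Dnajb9: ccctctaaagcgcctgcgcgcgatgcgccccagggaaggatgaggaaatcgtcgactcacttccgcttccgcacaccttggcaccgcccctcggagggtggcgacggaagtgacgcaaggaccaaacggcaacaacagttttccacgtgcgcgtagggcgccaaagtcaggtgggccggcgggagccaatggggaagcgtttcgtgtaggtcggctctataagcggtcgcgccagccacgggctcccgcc
A match is a description of the sequence only, and the arrays do not measure binding.

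The samples differed in ways the groups do not give. MPTP mouse 1 and non-acupoint mouse 1 correlated with each other at 0.987 over all 35557 probe sets, but with the other 6 arrays only at 0.952 to 0.969, while those 6 correlated among themselves at 0.984 to 0.991. Class medians and the leading genes of most comparisons are therefore given with all 8 arrays and with the other 6. In the 6, MPTP mouse 2 and non-acupoint mouse 2 each stand alone for their groups. The spread in every test over the 6 arrays therefore comes from the control and acupoint pairs alone, which limits each pass reported there. The arrays also differed in the markers of tissue regions: the mean centred log2 level of 14 thalamic neuron markers ran from -0.61 to -0.50 in controls and from 0.03 to 0.36 in injected mice. That of 11 dopaminergic markers was 0.79 to 0.96 in controls and -0.66 to 0.47 in injected mice, and that of 10 choroid plexus markers ran from -1.86 to 1.32. All 14 thalamic markers lay above the brightness limit, as did 11 of 12 dopaminergic, 11 of 12 hypothalamic and 10 of 12 choroid plexus markers. In bulk tissue, fewer cells of a type and less RNA per cell cannot be told apart. The part of these differences in the results that follow was not tested.

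The largest feature of the chaperone genes was the pair of arrays that stood apart. On both of these arrays, 29 of the 63 members (46%) were lower than on any of the other 6, against 27.9% of all genes, and 8 members (12.7%) were higher than on any of the other 6, against 28.3% of all genes. The difference of the pair from the other 6 had a median of -0.17 over the members and -0.01 over all genes. It was -0.27 over cytosolic members (19 of 35 lower), -0.21 over mitochondrial members (4 of 8 lower) and 0.01 over ER members (5 of 14 lower). Over the 12 measured genes known as HSF1 targets the median was -0.68, with 10 of 12 lower than on the other 6. Over the 7 ER members regulated by the UPR it was -0.44, with 4 lower and 1 higher than on the other 6. The pair was picked on all probe sets of these arrays, members included, so these values describe it and test nothing.

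**Figure D1:**
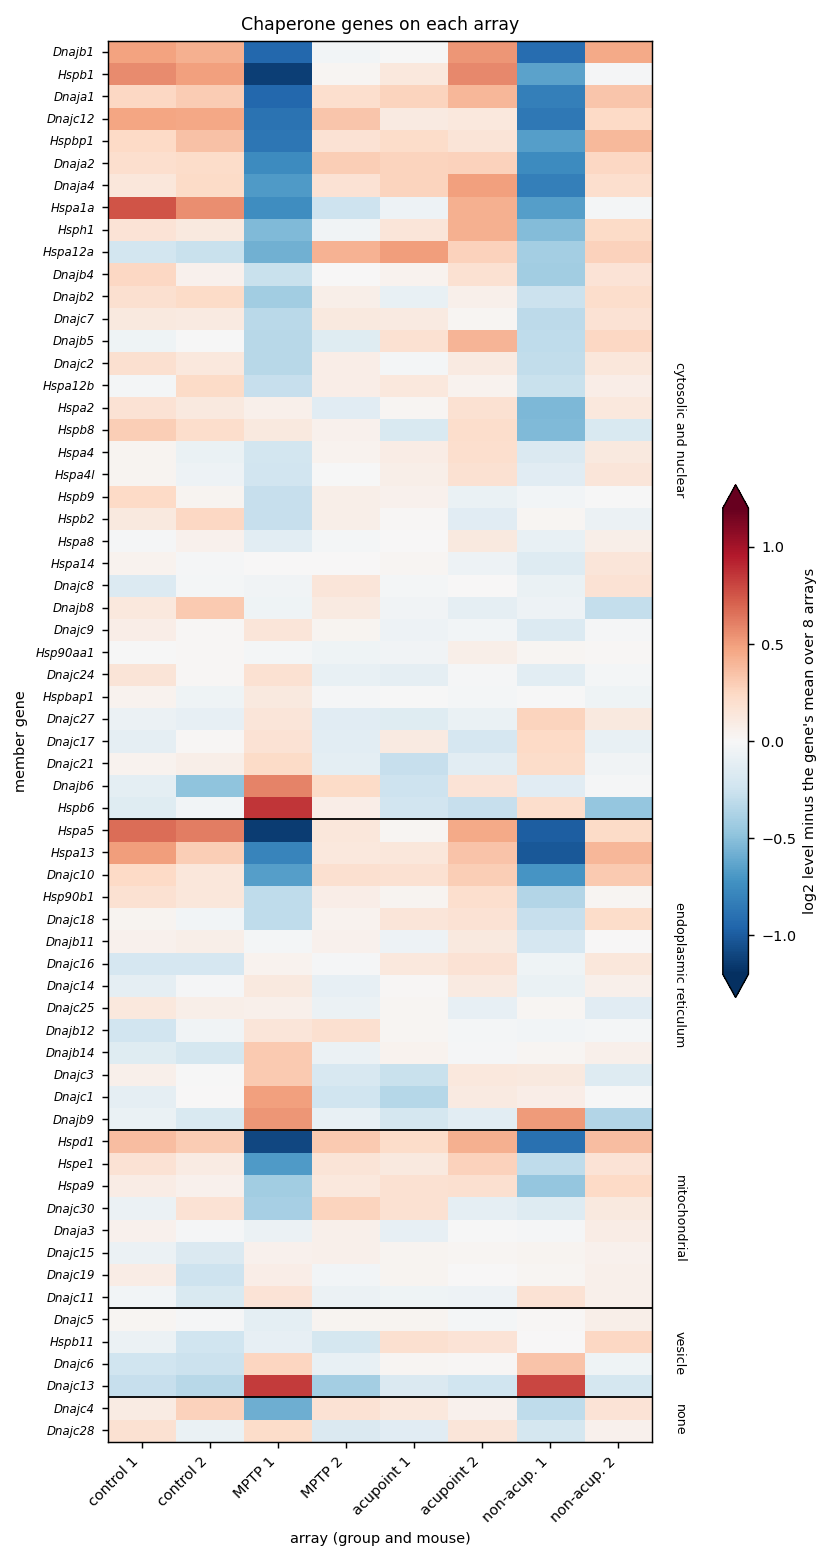
Log2 level of each of the 63 member genes on each of the 8 arrays, minus the gene's mean over the arrays, grouped by the site of the protein and sorted within a site by the difference of MPTP mouse 1 and non-acupoint mouse 1 from the other 6. The columns of these 2 mice are blue for most of the cytosolic genes at the top of their block and for the leading ER and mitochondrial genes, and red for Dnajb9, Dnajc6 and Dnajc13.

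Other gene classes were low on the same arrays. Of 16 cytosolic ribosome genes, 13 were lower on both than on the other 6, with a median of -0.61, and of 35 genes of mitochondrial complex I, 24 were lower, with a median of -0.54. The mean centred level of the cytosolic chaperones was -0.25 and -0.29 on the pair and 0.03 to 0.13 on the other 6. That of the mitochondrial chaperones was -0.30 and -0.20 on the pair and 0.00 to 0.14 on the others. The ER class was closest together, at -0.09 and -0.21 on the pair and -0.01 to 0.13 on the others.

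**Figure D2:**
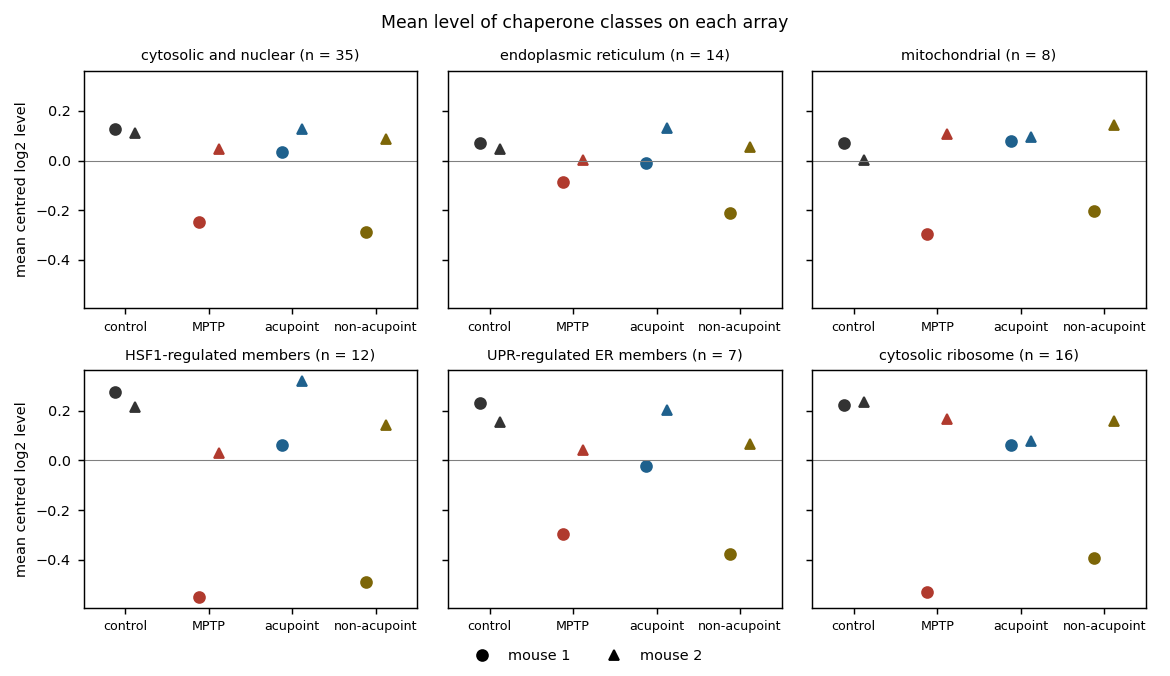
Mean of the centred log2 levels over the genes of each class on each array, by group (x axis), with circles for mouse 1 and triangles for mouse 2. MPTP mouse 1 and non-acupoint mouse 1 sit lowest in all 6 panels, at -0.55 and -0.49 for the 12 HSF1-regulated members, and the ribosome genes show the same pair.

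Among the cytosolic members, the stress-inducible Hsp70 gene Hspa1a had the largest difference between MPTP and control. Its log2 level was 7.79 and 7.60 in control mice, 6.29 and 6.79 in MPTP mice, 6.98 and 7.47 in acupoint mice, and 6.38 and 7.02 in non-acupoint mice. All 6 injected mice were below both controls, and the acupoint mean was the nearest to them. The difference was -1.15 ± 0.29 (log2, SE, n = 2 and 2), and it did not pass limma's test over all probe sets (Benjamini-Hochberg adjusted p = 0.672). Over the mean of the 3 injected groups the difference from control was -0.87 ± 0.24 (limma adjusted p = 0.458). Without the pair that stood apart it was -0.69 ± 0.15, with an adjusted p of 0.0543 by limma. Hspa1a is nearly identical to its neighbour Hspa1b, so its probes may read both genes. A probe set annotated to both gave 8.54 and 8.51 in controls, 7.16 and 7.64 in MPTP mice, 7.42 and 8.25 in acupoint mice and 7.12 and 7.90 in non-acupoint mice, again with all injected mice below both controls. Its MPTP difference was -1.13 ± 0.36 (log2, SE).

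Hspb1, the small heat shock protein Hsp27, had levels of 7.45 and 7.37 in controls, 5.75 and 6.90 in MPTP mice, 7.0 and 7.45 in acupoint mice, and 6.24 and 6.87 in non-acupoint mice. Acupoint mouse 2 lay at the control level, so the injected mice overlapped the controls. MPTP minus control was -1.09 ± 0.40 (log2, SE, limma adjusted p = 0.714), and without MPTP mouse 1 it was -0.51. The other probe set of Hspb1 showed the same drop on the pair of arrays, at -1.18 or -1.21 for the 2 probe sets.

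Of the other inducible cytosolic members, Dnajb1, Dnaja1 and Hsph1 were lowest on that pair. Hsp90aa1 and Hspb8 were not lower on both of its arrays than on the other 6. Dnajb1, the J-domain partner of the inducible Hsp70, was 8.90 and 8.85 in controls, 7.48 and 8.38 in MPTP mice, 8.42 and 8.95 in acupoint mice, and 7.51 and 8.87 in non-acupoint mice. Dnaja1, another cytosolic J-domain partner, was 9.58 and 9.71 on the pair and 10.73 to 10.92 on the other 6. Hsph1, the nucleotide exchange factor Hsp110, was 10.24 and 10.26 on the pair and 10.73 to 11.20 on the others. In each of these the pair was lower than all other arrays, and the remaining MPTP and non-acupoint mouse lay near the controls or between them and the pair. None of the 3 passed limma's adjusted test in any comparison.

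Hsp90aa1 and Hspa8 varied little. Hsp90aa1, an Hsp90 isoform, ran from 12.41 to 12.52 over the 8 arrays. Hspa8, the constitutive Hsp70 that also takes part in clathrin uncoating and autophagy, ran from 12.56 to 12.80, with its lowest values, 12.56 and 12.59, on the pair that stood apart. Their MPTP differences were -0.04 ± 0.12 and -0.09 ± 0.13 (log2, SE). Saturation of these very bright probe sets was not tested.

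Dnajb6, a J-domain protein that suppresses aggregation, went the other way in the dim probe set that the rule picks. It was 5.72 and 5.36 in controls, 6.43 and 6.07 in MPTP mice, 5.59 and 6.01 in acupoint mice, and 5.71 and 5.83 in non-acupoint mice. Both MPTP mice lay above both controls, by 0.71 ± 0.22 (log2, SE, limma adjusted p = 0.714). The 4 probe sets annotated to Dnajb6 together with Gm4247 gave MPTP differences of 0.04 to 0.08. The higher value thus stood in the 1-symbol probe set near the brightness limit and not in the brighter ones.

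Among the ER members, Hspa5 (BiP, the main ER Hsp70 and a sensor of the UPR) led. It was 11.15 and 11.08 in controls, 9.33 and 10.61 in MPTP mice, 10.50 and 10.93 in acupoint mice, and 9.48 and 10.70 in non-acupoint mice. Like Hspa1a, it was lower in all 6 injected mice than in both controls. The group means were 11.11 ± 0.04, 9.97 ± 0.90, 10.72 ± 0.30 and 10.09 ± 0.86 (SD, n = 2 each). MPTP minus control was -1.14 ± 0.52 (SE, limma adjusted p = 0.714) and, without the pair that stood apart, -0.50 ± 0.17 (adjusted p = 0.250 by limma). The mean of the injected groups differed from control by -0.85 ± 0.42 with 8 arrays and by -0.44 ± 0.13 with 6.

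**Figure D3:**
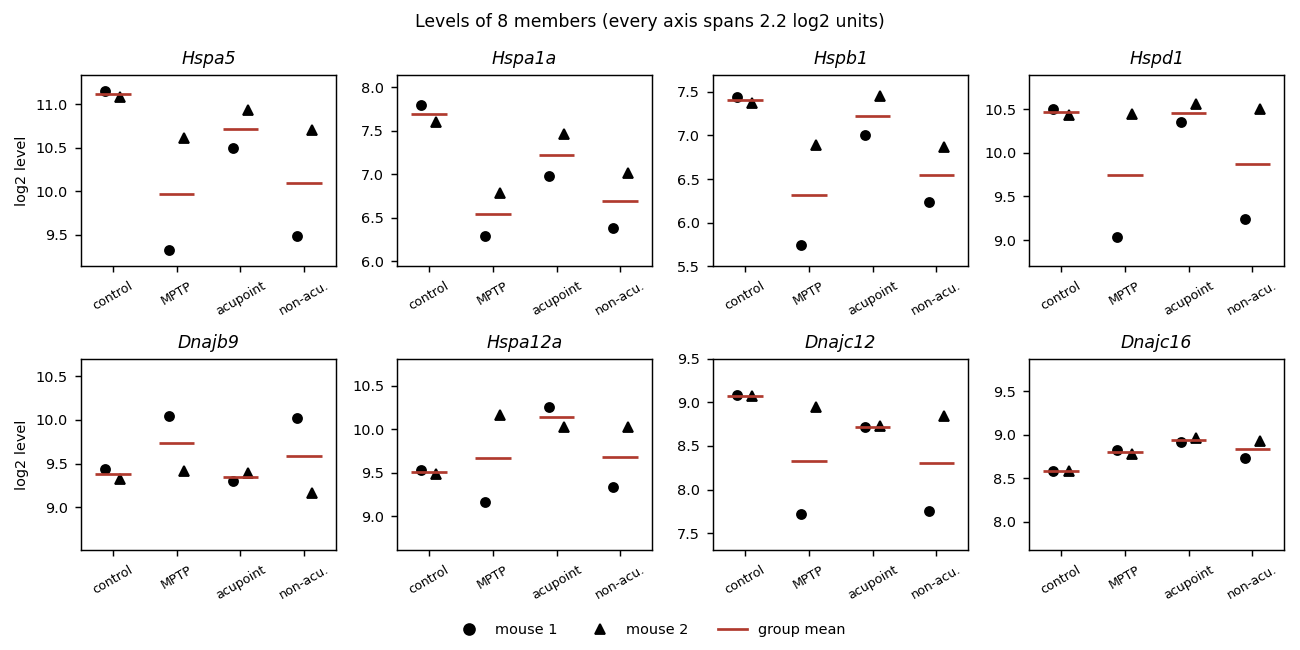
Log2 level of 8 member genes in each mouse (circles, mouse 1; triangles, mouse 2) with the mean of each group as a line; every vertical axis spans the same number of log2 units. Hspa5 and Hspa1a are lower in all 6 injected mice than in the controls, Hspd1 is low only in MPTP mouse 1 and non-acupoint mouse 1, and Dnajc16 is higher in all injected mice.

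The other ER members targeted by the UPR did not share 1 pattern. Hsp90b1 (Grp94, the ER Hsp90) was 11.25 and 11.21 in controls, 10.77 and 10.72 on the pair, and 11.10 to 11.27 on the remaining 4 injected arrays. Hspa13, an ER Hsp70-like protein, was 9.22 and 9.01 in controls, 7.92 and 7.70 on the pair and 8.84 to 9.11 on the remaining 4. Dnajc10, an ER disulphide reductase with a J domain, was 8.83 and 8.79 on the pair and 9.63 to 9.81 on the other 6. Each of these was lowest on the pair. Dnajb9 was higher there, at 10.04 and 10.02 against 9.16 to 9.43 on the other 6. Dnajb11, an ER-lumen J protein, was 8.65 and 8.66 in controls and below both in 5 of the 6 injected mice (8.39 to 8.64), with acupoint mouse 2 above them at 8.70. Dnajc3, which inhibits eIF2alpha kinases and folds ER clients, ran from 9.26 to 9.83, with 3 injected mice below and 3 above both controls. Dnajc3 and Dnajb11 are also the ER genes that, with Hspa5 and Hsp90b1, held an ER stress element of either kind.

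Dnajc16, an ER membrane J protein, had no drop on the pair. It was at 8.58 ± 0.00 in controls, 8.80 ± 0.04 in MPTP mice, 8.94 ± 0.03 in acupoint mice and 8.83 ± 0.13 in non-acupoint mice (SD, n = 2 each). All 6 injected mice were above both controls. With 8 arrays the acupoint difference from control was 0.35 ± 0.13 (limma adjusted p = 0.765) and that of the 3 injected groups was 0.27 ± 0.10 (limma adjusted p = 0.663).

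Of the mitochondrial members, the genes of the folding chamber and of the mitochondrial Hsp70 were lowest on the pair. Hspd1 was 10.50 and 10.43 in controls, 9.04 and 10.45 in MPTP mice, 10.36 and 10.56 in acupoint mice, and 9.24 and 10.50 in non-acupoint mice. Hspe1, which shares the promoter printed above, was 9.00 and 9.38 on the pair and 9.78 to 9.96 on the other 6. Hspa9, the mitochondrial Hsp70 that pulls imported proteins inward, was 10.35 and 10.29 on the pair and at least 10.81 on each of the other 6. On the remaining 6 arrays the injected mice overlapped the controls for Hspd1 and Hspe1, while for Hspa9 the 4 injected mice lay above both controls, at 10.89 or more against 10.81 and 10.84. The inner-membrane J proteins Dnajc15 (8.92 to 9.16) and Dnajc19 (7.35 to 7.69), which sit at the import motor, did not show the drop.

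Of the 4 members at vesicles, endosomes or cilia, Dnajc5 (cysteine string protein alpha, a synaptic vesicle chaperone) ran from 10.40 to 10.59. Dnajc6 (auxilin, which uncoats clathrin vesicles with Hspa8, and whose human gene is mutated in early-onset parkinsonism) was 10.68 and 10.66 in controls, 11.18 and 11.26 on the pair and 10.83 to 10.95 on the remaining 4 injected arrays. All injected mice were above both controls for Dnajc6, and the MPTP difference was 0.33 ± 0.18 (log2, SE), which did not pass the test (limma adjusted p = 0.714).

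Dnajc13 (an endosomal J protein also linked to parkinsonism) was read by 15 probe sets with 1 symbol, which disagreed in a patterned way. The brightest, used here, was 10.27 and 10.24 on the pair and 9.03 to 9.26 on the other 6. In the order of their identifiers, the first probe set was higher on the pair, and in the 8 numbered 8 to 15 both arrays were higher than all other 6. In the 6 numbered 2 to 7 the mean of the pair was lower. There non-acupoint mouse 1 was below the other 6 in all 6 probe sets and MPTP mouse 1 in 2. The mean differences of the pair ran from -0.46 to 1.15. The probe sets thus gave no single direction for the gene. The positions of the probe sets in the gene were not used here. Among other members with several probe sets, those of Dnaja1 differed on the pair by -1.17 and -0.70 and those of Hspd1 by -1.33 and -1.12.

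**Figure D4:**
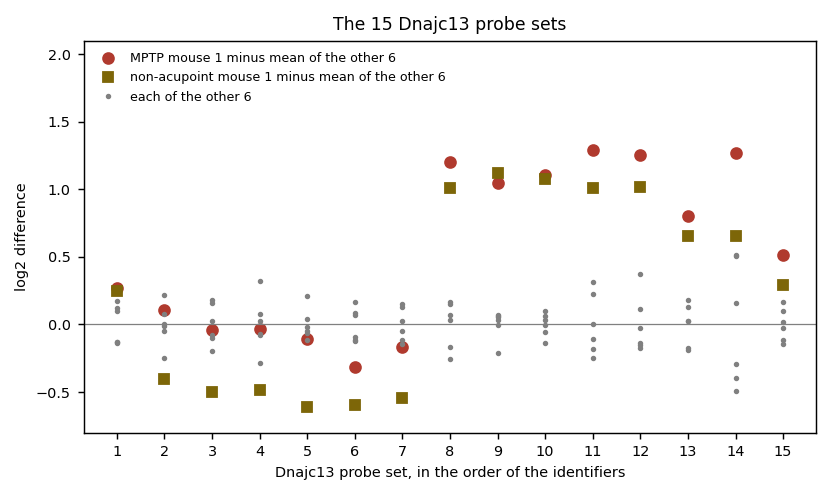
Log2 difference from the mean of the other 6 arrays for MPTP mouse 1 (red circles) and non-acupoint mouse 1 (squares), and for each of those 6 (small points), in the 15 probe sets of Dnajc13 in the order of their identifiers. Over probe sets 8 to 15 the mean of both marked arrays is above 0, by up to 1.15, and over probe sets 2 to 7 it is below 0, where non-acupoint mouse 1 is the lower of the pair.

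The question of whether the toxin changed the thalamic chaperones was addressed by MPTP minus control. None of the 63 members passed limma's test with an adjusted p under 0.05, and none of all 13524 genes did (0%). At an unadjusted p under 0.05 there were 3 members, Hspa1a, Dnajb6 and Hspb1, against 5.59% of all genes. Of the members, 42 were lower, against 51.6% of all genes, and 21 were higher. In 22 members both MPTP mice lay below both controls, against 20.1% of all genes, and in 7 both lay above, against 18.6%. The median change was -0.10 over the members, -0.19 over the cytosolic, -0.01 over the ER and -0.07 over the mitochondrial ones, and -0.01 over all genes. With the 6 arrays, where MPTP mouse 2 stands alone for its group and is assumed to vary like the other groups, these medians were -0.04, -0.07, -0.03, 0.05 and -0.01. The HSF1-regulated members went from a median of -0.42 with 8 arrays (12 of 12 lower) to -0.11 with 6 (10 of 12 lower). The UPR-regulated ER members went from -0.27 with 8 arrays (5 of 7 lower) to -0.07 with 6 (5 of 7 lower).

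Whether needling at the acupoints moved these genes under the toxin was addressed by acupoint minus MPTP, which shares the MPTP arrays with the comparison above. None of the members passed limma's adjusted test, and 1 had an unadjusted p under 0.05, against 1.44% of all genes. This was Dnajb5, a cytosolic J protein: 7.91 and 7.95 in controls, 7.62 and 7.82 in MPTP mice, 8.14 and 8.37 in acupoint mice, and 7.65 and 8.20 in non-acupoint mice. Both acupoint mice lay above both MPTP mice, by 0.53 ± 0.21 (limma adjusted p = 0.889). In 16 members both acupoint mice lay above both MPTP mice, against 14.8% of all genes, and in 7 below, against 12.9%. The median was 0.10 over the members, 0.16 over the cytosolic, 0.03 over the ER and 0.05 over the mitochondrial ones, and 0.00 over all genes. Each of these medians takes MPTP mouse 1 into its baseline. With the 6 arrays they were 0.03 over the members, 0.0028 over the cytosolic, 0.10 over the ER and 0.01 over the mitochondrial ones, and 0.01 over all genes.

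Needling at the hips was set against MPTP over the same MPTP arrays. In non-acupoint minus MPTP 0 members passed limma's adjusted test and 0 had an unadjusted p under 0.05, against 0.0518% and 1.61% of all genes. In 2 members both non-acupoint mice lay above both MPTP mice and in 6 below, against 5.72% and 7.09%. The medians were 0.03 over the members, 0.04 over the cytosolic, -0.05 over the ER and 0.04 over the mitochondrial ones. With the 6 arrays, where MPTP mouse 2 and non-acupoint mouse 2 each stand alone, they were 0.06, 0.06, 0.11 and 0.04, and 0.04 over all genes. In acupoint minus non-acupoint, which asks whether the site of the needle mattered, 0 members passed at either level by limma, against 2.04% of all genes at the unadjusted level. There the medians were 0.08, 0.12, 0.09 and 0.02 with 8 arrays, and -0.02, -0.0035, 0.01 and -0.05 with 6. In 7 members both acupoint mice were higher and in 4 lower, against 14.4% and 18.1%. An F test over the 4 groups gave 1 member at an unadjusted p under 0.05, Hspa1a, with an adjusted p of 0.906 by limma, against 3.82% of all genes.

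All injected mice were also set against the controls, as the mean of the 3 injected groups minus control. With 8 arrays none of the members passed limma's adjusted test, and 2, Hspa1a and Dnajc16, had an unadjusted p under 0.05, against 7.45% of all genes. In 6 members every injected mouse lay below both controls, against 9.58% of all genes: Hspa1a, Hspa5, Dnajc12, Dnajb8, Hspb2 and Dnajc25. In 5 every injected mouse lay above them, against 10.6%: Dnajb12, Dnajb14, Dnajc16, Dnajc15 and Dnajc6. The last 3 of the lower genes and the first pair of the higher ones were named after their values were seen. These shares were at or below those of all genes. For Dnajb14 this holds in the 1-symbol probe set only. The probe sets annotated to Dnajb14 together with Pin4 differed from control by -0.39 and -0.35 (log2) and were lowest on the pair that stood apart.

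With the 6 arrays, 1 member passed, Hspa12a, against 5.66% of all genes, and 16 (25.4%) had an unadjusted p under 0.05, against 25.7% of all genes. Hspa12a, a distant relative of the Hsp70s that is abundant in brain, was 9.53 and 9.48 in controls, 10.16 in MPTP mouse 2, 10.25 and 10.02 in acupoint mice and 10.02 in non-acupoint mouse 2, and 9.17 and 9.34 on the pair that stood apart. Over the 6 arrays all 4 injected mice were above the controls, by 0.60 ± 0.08 (log2, SE), while over 8 the groups overlapped. That SE rests on the control and acupoint pairs alone, since MPTP mouse 2 and non-acupoint mouse 2 each stand alone, and the pass has the same limit. The mean of the injected mice was above control in all 8 mitochondrial members over the 6 arrays, against 50.2% of all genes, with a median of 0.09, where over 8 arrays the median was -0.04. None of the 8 passed limma's adjusted test, 1 had an unadjusted p under 0.05 (Dnajc15, at 0.17), and the smallest differences were 0.0015 for Hspd1 and 0.019 for Dnaja3.

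**Figure D5:**
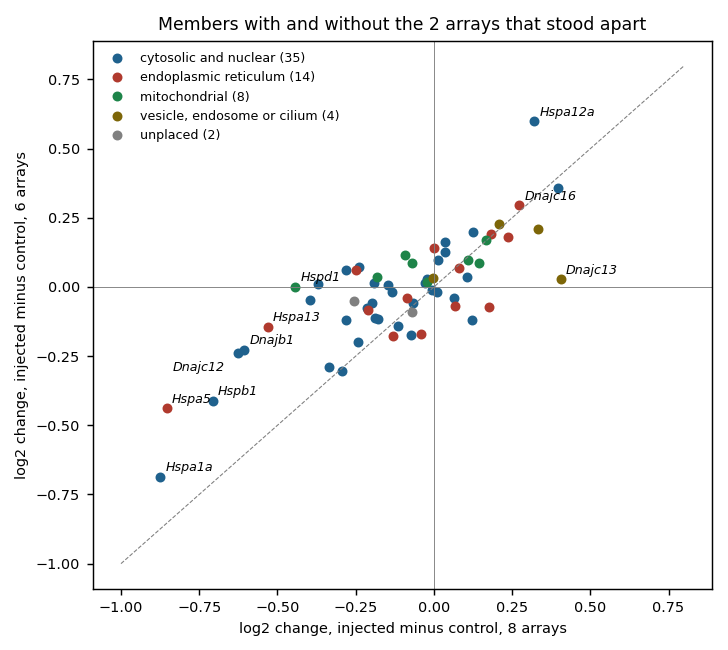
Log2 change of each member, mean of the injected groups minus control, with all 8 arrays (x axis) and without MPTP mouse 1 and non-acupoint mouse 1 (y axis), coloured by the site of the protein; the dashed line marks equal values. Hspa1a stays low on both axes, Hspd1 and Hspa13 are low mainly on the x axis, and Hspa12a is higher on the y axis, at 0.60.

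Neither acupoint mouse was one of the pair that stood apart, so acupoint minus control uses the same 4 arrays either way, and only the estimate of the spread changes. With the spread of all 8 arrays none of the members passed limma's adjusted test, and 1, Dnajc16, had an unadjusted p under 0.05, against 5.98% of all genes. With the spread of the 6 arrays, which here comes from the control and acupoint pairs alone, 3 members (4.76%) passed, against 8.99% of all genes. Hspa12a was higher by 0.63 ± 0.10 (adjusted p = 0.0180), Dnajc16 was higher by 0.35 ± 0.07 (adjusted p = 0.0348), and Dnajc12 was lower, at -0.36 ± 0.07 (adjusted p = 0.0335), all by limma with Benjamini-Hochberg adjustment. The share of members called was below that of all genes.

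Dnajc12, a co-chaperone of the aromatic amino acid hydroxylases, among them the enzyme that makes dopamine's precursor, was 9.08 and 9.07 in controls, 7.72 and 8.94 in MPTP mice, 8.71 and 8.73 in acupoint mice, and 7.75 and 8.85 in non-acupoint mice. All injected mice lay below both controls, and on the 6 arrays the acupoint mice were lowest. The mean centred level of the 11 dopaminergic markers was 0.96 and 0.79 in controls, 0.47 in MPTP mouse 2, -0.21 in non-acupoint mouse 2 and -0.65 and -0.66 in acupoint mice, the same order of groups. On MPTP mouse 1 and non-acupoint mouse 1 it was -0.42 and -0.29, above the acupoint mice. Dnajc12 was lowest on these arrays, so the order did not hold over all 8. In acupoint minus control, 10 of these 11 markers and 11 of 11 hypothalamic markers were lower, with medians of -0.73 and -1.24, and 14 of 14 thalamic and 10 of 10 choroid plexus markers were higher, with medians of 0.91 and 1.62. The part of these markers in the values of Dnajc12, Hspa12a and Dnajc16 was not tested.

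Over acupoint minus control as a whole, both acupoint mice lay below both controls in 13 members and above in 16, against 28.8% and 30.5% of all genes. The medians were -0.02 over the members, -0.04 over the cytosolic, -0.04 over the ER and 0.06 over the mitochondrial ones, and -0.00 over all genes. Of the 7 ER members regulated by the UPR, 6 were lower, against 50.1% of all genes, with a median of -0.04.

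Across the 8 arrays, the members whose levels ran most like those of Hspa5 were Dnajc2 (a ribosome-bound J protein, Pearson r = 0.981), Hsp90b1 (0.975) and Dnajb1 (0.974), and that least like it was Dnajc13 (-0.946, in its brightest probe set alone). Over the 6 arrays without the pair these were 0.806, 0.813, 0.789 and -0.201, and Hspa12a was then least like it, at -0.929, where over 8 arrays it had been at 0.505. Hspa1a, at 0.935 over 8, was 0.952 over 6. Dnajb9 turned from -0.885 to 0.377. These points share the labels, the 2 low arrays and the tissue differences given above, and the values are a description over 8 or 6 arrays.

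The co-factors of the cytosolic chaperones were given by a list of 29 co-chaperones and heat shock factors, 28 of them measured. In MPTP minus control 22 of the 28 were lower, against 51.6% of all genes, with a median of -0.24. Without the pair that stood apart 20 were lower and the median was -0.07. The SEs and tests over 6 arrays given below rest on the spread of the control and acupoint pairs alone. None passed limma's adjusted test, and 1, Fkbp5, had an unadjusted p under 0.05, against 5.59% of all genes. Fkbp5, an Hsp90 co-chaperone induced by glucocorticoids, was 7.82 and 7.71 in controls, 8.56 and 8.73 in MPTP mice, 8.55 and 8.12 in acupoint mice and 7.82 and 8.30 in non-acupoint mice. Both MPTP mice were above the controls, by 0.88 ± 0.22 (limma adjusted p = 0.661). From here on, the differences of Bag3, Bag2 and Fkbp5 are those of the mean of the 3 injected groups minus control. Bag3, which links Hsp70 to small heat shock proteins and autophagy, was 7.03 and 7.06 in controls and 6.51 to 6.79 in all 6 injected mice. It differed by -0.37 ± 0.11 over 8 arrays (limma adjusted p = 0.474) and by -0.35 ± 0.06 over 6, where it passed (adjusted p = 0.0345). Bag2, which inhibits the ubiquitin ligase that works with Hsp70, and Fkbp5 were the other 2 of the 28 that passed over 6 arrays, at -0.46 ± 0.07 (adjusted p = 0.0231) and 0.69 ± 0.13 (adjusted p = 0.0389). These 3 of 28 stand beside 5.66% of all genes called in that comparison.

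The ER partners were 25 genes of folding, degradation and UPR signalling, all measured. In MPTP minus control 15 of 25 were lower, against 51.6% of all genes, with a median of -0.07 (-0.02 with 6 arrays). None passed limma's adjusted test, and 5 had an unadjusted p under 0.05, against 5.59% of all genes. Creld2, an ER protein induced by ATF6, was 8.20 and 8.06 in controls, 7.24 and 7.34 in MPTP mice, 7.43 and 7.81 in acupoint mice, and 7.49 and 7.55 in non-acupoint mice. Xbp1, the UPR transcription factor, was 9.75 and 9.71 in controls and 8.82 to 9.46 in the injected mice. Both were lower in all 6 injected mice than in the controls, as were Sdf2l1 and Pdia6, ER folding factors. Of the 25 partners, 7 had every injected mouse below both controls, against 9.58% of all genes. In 3 every injected mouse lay above both controls, against 10.6%. On the pair that stood apart Creld2 was at 7.24 and 7.49, within or just under the 7.34 to 7.81 of the other injected mice.

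Over the mean of the injected groups, Creld2 differed from control by -0.65 ± 0.13 with 8 arrays (limma adjusted p = 0.295) and by -0.63 ± 0.12 with 6, where it passed (adjusted p = 0.0428). Xbp1 differed by -0.62 ± 0.17 and by -0.52 ± 0.13 (adjusted p = 0.448 and 0.0717 by limma), and Sdf2l1 by -0.98 ± 0.30 and -0.71 ± 0.15 (adjusted p = 0.523 and 0.0546). Eif2ak3, which encodes the UPR sensor kinase PERK, was higher by 0.40 ± 0.11 with 8 arrays and by 0.36 ± 0.07 with 6, where it passed (adjusted p = 0.0463). These were the 2 of 25 called over 6 arrays, against 5.66% of all genes. Hspa5 itself did not pass with 6 arrays (limma adjusted p = 0.103).

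The mitochondrial partners were 14 genes of import, folding and proteolysis. None had an unadjusted p under 0.05 by limma in MPTP minus control, against 5.59% of all genes. There 9 of 14 were lower, against 51.6% of all genes, with a median of -0.04. Over the 6 arrays, 12 of the 14 were higher in the injected groups than in control, against 50.2% of all genes, with a median of 0.08, and none passed the adjusted test.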

How the data were processed

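Gene expression in the thalamic region of 8 mice was read on Affymetrix whole-transcript arrays from 300 ng of total RNA each. The deposited values are log2 levels of 35557 probe sets, which the authors made with Affymetrix Expression Console and RMA, per the submitters' processing notes; no versions are stated. RMA corrects background and normalizes between arrays, which hides any shift that all transcripts share. No scanner signals were used, and the number of arrays limits the precision. Genes were named through the platform annotation, and all 63 members matched RefSeq by gene identifier.

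Group means were fitted to all 8 arrays over 15791 named probe sets above the brightness limit, with R 4.3.3 and limma 3.58.1 (lmFit, eBayes; 4 residual and 2.53 prior degrees of freedom, median residual SD 0.207), two-sided, with Benjamini-Hochberg adjustment over all of them and a threshold of 0.05. An exact permutation test of 2 against 2 cannot go below 0.333 and was not used. Shares of all genes count 1 probe set per gene. The fit was run on simulated data with independent noise. Those data hold no pair of arrays that stands apart, so they cannot show how the fit behaves with it.

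The members and lists were chosen with earlier results of these data known. Named were a preset list of well-known members, up to 6 more per comparison of smallest unadjusted p under 0.05, members near the brightness limit and up to 4 partners per list and comparison. Hspa12a, Hspa13, Dnajc2, Dnajc10, Dnajc12 and Bag2, where the rule does not reach them, were named after their values were seen. The labels give each mouse a number within its group. The deviations of same-numbered mice correlated between groups at -0.282 to 0.822, not all above 0.1, so the numbers do not pair samples. Alternatives were other brightness limits, probe set rules, scalings, array weights, a replicate block, fewer groups and fewer arrays.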

Additional observations from a re-analysis of the deposited data

How the results depend on the processing

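With 8 arrays of equal weight and no term for single arrays, no member passed the adjusted test in any comparison. For acupoint minus control, the 6 arrays give the same fit as the compared groups alone. Array weights were equal within each group and so did not single out the 2 arrays that stood apart. In that comparison, 3 members passed with array weights (11.5% of all genes), 3 with the compared groups alone (8.99%) and 1 with a term for those 2 arrays (3.96%). They were Hspa12a, Dnajc16 and Hspb11 with weights, Hspa12a, Dnajc16 and Dnajc12 with the compared groups alone, and Hspa12a with the term. In the injected groups minus control, 1 passed with the 6 arrays (5.66%) and 1 with that term (2.26%). The ER median in MPTP minus control (-0.01) turned to 0.027 with the dimmest 60% left out and lay between -0.028 and 0.068 when each mouse was left out in turn, the highest without MPTP mouse 2; the ER median in non-acupoint minus MPTP (-0.05) was 0.11 with the 6 arrays. Each mouse was also left out in turn. The mitochondrial median in MPTP minus control then ran from -0.27 (without MPTP mouse 2) to 0.047 (without MPTP mouse 1). The ER median in acupoint minus control ran from -0.076 (without acupoint mouse 2) to 0.10 (without acupoint mouse 1). The cytosolic median lay between 0.0028 and 0.36 in acupoint minus MPTP, between -0.17 and 0.18 in non-acupoint minus MPTP and between -0.0035 and 0.32 in acupoint minus non-acupoint. The causes were not tested beyond the arrays left out. Of 357 alternative medians 349 moved by less than the spread between mice and 29 had the other sign. That spread, within groups, was 0.17 for cytosolic, 0.11 for ER and 0.19 for mitochondrial members, and it includes the pair that stood apart. Most of the medians are smaller than it, so this count cannot show that they are stable. Of 215 alternative values of Hspa1a, Hspb1, Hspa5, Dnajb5, Dnajb6 and Dnajc16 none changed sign. Some settings cannot change a group difference, such as the array weights, the replicate block or leaving out a mouse of another group. This count therefore cannot show that the signs are stable. Among all 63 members, going from 8 to 6 arrays turned the sign of 20 in MPTP minus control (37.6% of all genes). It turned 24 in acupoint minus MPTP (44.8%), 17 in non-acupoint minus MPTP (28.9%) and 32 in acupoint minus non-acupoint (38.3%). In the injected groups minus control 19 turned (24.5%). The number of members at an unadjusted p under 0.05 by limma was highest without MPTP mouse 2 in MPTP minus control and in acupoint minus MPTP. That setting leaves the array that stood apart as the only MPTP mouse. The share of all genes was not counted there, so these numbers say nothing about chaperones in particular. With the mouse number as a replicate block, which the pairing check does not bear out, 0 members passed. Each group holds 1 mouse of each number, so the block cannot change the cytosolic median of -0.19 in MPTP minus control. Groups of 2 mice limit what any of these tests can show.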
